A study of Mus musculus with 4 samples.

Results

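The MHC class I antigen presentation pathway was followed through 10 genes in glomerular cells of wild-type (WT) and Alport (AS) mice. The genes were taken as a named list out of 55488 measured genes and were B2m, H2-K1, H2-D1, H2-Q6, H2-Q7, Nlrc5, Tap1, Tap2, Psmb8 and Psmb9. Single-cell RNA was measured in glomeruli of WT and AS mice at 5 weeks and at 8 weeks of age, with 1 library per genotype and age and 4 libraries in all. The AS mice carried the Col4a5 G5X mutation in a collagen chain of the glomerular basement membrane, and the series describes 5 weeks as a time before proteinuria and 8 weeks as a time of mild proteinuria. The labels give neither sex, strain nor the number of mice per library, and the tissue field names embryonic kidney whereas the titles give ages after birth. With 1 library per group there was no test between groups, and genotype, age, animal and library preparation cannot be told apart.

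MHC class I molecules show peptides from inside the cell to CD8 T cells. A heavy chain pairs with the light chain beta-2 microglobulin and a peptide, the peptide is cut by the proteasome and carried into the endoplasmic reticulum by the TAP transporter, and the loaded complex moves to the cell surface. Interferons raise many genes of this pathway, in part through the transactivator NLRC5, and exchange catalytic subunits of the constitutive proteasome for those of the immunoproteasome. The glomerular filter is built by podocytes, fenestrated endothelial cells and supporting mesangial cells, which differ in how much of this pathway they carry.

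Of the 10 genes 8 lie on mouse chromosome 17 (GRCm38), with Psmb9, Tap1, Psmb8 and Tap2 next to each other. B2m lies on chromosome 2 and Nlrc5 on chromosome 8. RefSeq promoter sequences (GRCm38.p6) matched 8 members, and Nlrc5 and Tap2 had no entry. The classical class I promoters share a stretch that binds the enhanceosome through which NLRC5 acts, and it is shown for the light chain and the heavy chains because light and heavy chain levels differed between cell classes. Each window ends at ATTGG, the reverse complement of the CCAAT box, and capitals mark TGACG, the core of the X2 box, and ATTGG.
B2m, chr2:122147609-122147638, plus strand: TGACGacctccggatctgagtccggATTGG
H2-K1, chr17:34000359-34000388, minus strand: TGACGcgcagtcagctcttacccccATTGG
H2-D1, chr17:35262993-35263022, plus strand: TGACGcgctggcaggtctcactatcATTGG
H2-Q6, chr17:35424746-35424775, plus strand: atgacctgtaacagttctcacccctATTGG
H2-Q7, chr17:35439090-35439119, plus strand: aTGACGtgtaacagttctcacccctATTGG
The H2-Q6 window did not hold TGACG in its letters, whereas the B2m, H2-K1, H2-D1 and H2-Q7 windows did. Of 32851 promoter windows of 250 bases, 17.8% held the X2 core and 33.8% held the CCAAT box on either strand. The X2 core and the CCAAT box at this distance were found in 120 windows, or 0.365%, and the distance was chosen after the member sequences were seen. The 250 bases before the start site are printed for B2m, H2-K1 and H2-Q7, the light chain, a classical and a nonclassical heavy chain. Capitals mark matches on either strand to the X2 core, the CCAAT box, the core of the interferon-stimulated response element and the NF-kB consensus.
B2m, chr2:122147437-122147686, plus strand: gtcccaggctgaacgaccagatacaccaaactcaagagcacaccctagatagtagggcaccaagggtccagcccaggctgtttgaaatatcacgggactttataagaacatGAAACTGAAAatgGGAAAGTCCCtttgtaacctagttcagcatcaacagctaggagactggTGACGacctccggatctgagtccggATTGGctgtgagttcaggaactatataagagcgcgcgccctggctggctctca
H2-K1, chr17:34000348-34000597, minus strand: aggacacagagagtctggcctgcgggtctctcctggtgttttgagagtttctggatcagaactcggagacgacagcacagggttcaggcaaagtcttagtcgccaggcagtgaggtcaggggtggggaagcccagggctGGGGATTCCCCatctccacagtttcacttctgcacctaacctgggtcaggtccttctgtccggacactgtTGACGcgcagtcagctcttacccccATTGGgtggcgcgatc
H2-Q7, chr17:35438905-35439154, plus strand: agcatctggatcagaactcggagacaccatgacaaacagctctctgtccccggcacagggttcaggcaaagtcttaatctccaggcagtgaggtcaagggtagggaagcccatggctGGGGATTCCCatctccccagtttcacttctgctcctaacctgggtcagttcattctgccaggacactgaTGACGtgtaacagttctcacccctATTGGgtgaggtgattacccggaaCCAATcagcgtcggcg
The B2m window held the interferon response core, which 2.98% of all windows held, and an NF-kB match, which 7.25% held. The H2-K1 and H2-Q7 windows held NF-kB matches and no match to the strict pattern used for the interferon response core. Looser forms of this element were not searched, so these windows are not shown to lack it. A match describes letters and not binding, and these RNA counts do not measure binding.

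Cells were grouped by marker genes after the class I, class II and interferon genes had been left out of the clustering, so that the members did not define the classes. Podocyte-like cells numbered 1611 in WT 5 weeks, 1493 in AS 5 weeks, 2695 in WT 8 weeks and 2409 in AS 8 weeks. In the same order there were 2395, 3153, 950 and 2355 glomerular endothelial-like cells, 696, 930, 174 and 1255 mesangial-like cells, and 172, 233, 53 and 156 immune-like cells. The marker lists that named the clusters hold Nphs1, Emcn and Ptprc, so the levels of these genes describe the classes and do not test their names. Nphs1, the slit diaphragm protein nephrin, was at 2132 to 2830 counts per 1000000 UMIs (CPM) in podocyte-like cells. Emcn, an endothelial sialomucin, was at 5247 to 7097 CPM in endothelial-like cells. Immune-like cells had the leukocyte gene Ptprc at 924 to 1344 CPM and also Emcn at 1082 to 2094 CPM, so RNA of other cells was present in them. Different clusters held most podocyte-like cells in each library, and their values are given below. Of the 950 endothelial-like cells of WT 8 weeks 384 lay in cluster 10, which held 2, 1 and 52 cells of WT 5 weeks, AS 5 weeks and AS 8 weeks. The unnamed share was 22.9% in WT 8 weeks against 6.05% to 8.75% in the other libraries, mostly low-depth barcodes. Kept cells had medians of 8545 to 10915 UMIs. Between 0 and 22 cells per class and library carried a barcode that also occurred in another library.

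Levels are CPM, the UMIs of a gene relative to all UMIs of the cells of a class in a library. A UMI is counted near the 3' end of a transcript, so these levels were not divided by transcript length. Ratios are log2 of AS over WT after 5 CPM was added to both, with 95% intervals that cover counting error only and not differences between animals. A gene was counted as higher or lower at 1.5-fold or more, if it had at least 30 UMIs and 20 CPM in either library. A gene that passes this floor through 1 library alone leans towards being counted as lower in the other. The 6 comparisons were drawn from 4 libraries and share them.

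**Figure D1:**
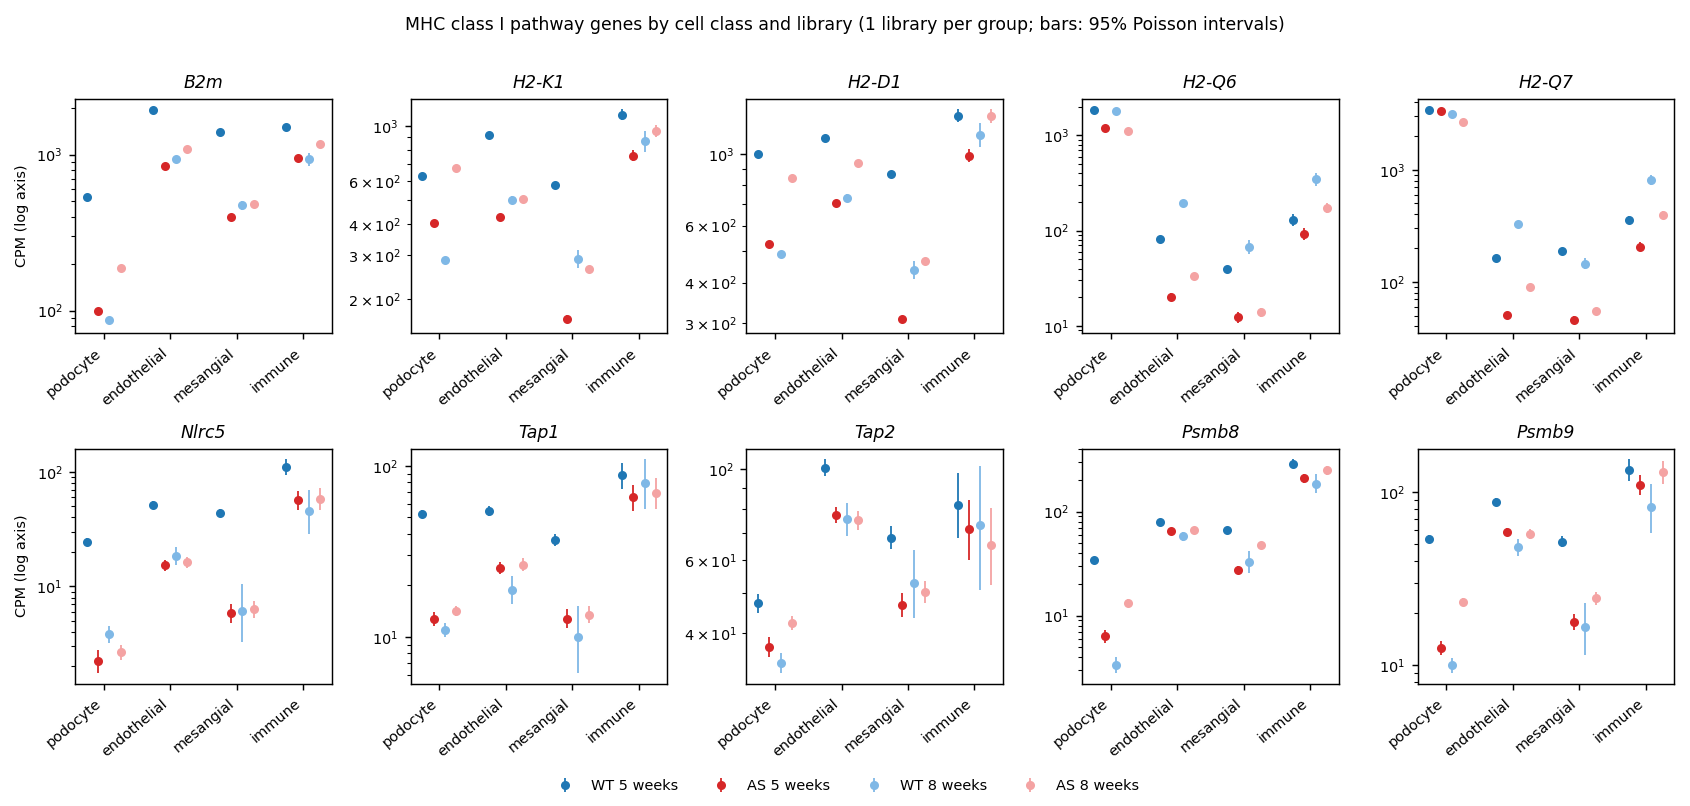
Level of each member (CPM, log axis) by cell class, with 1 point per library and 95% Poisson intervals. The WT 5-week library is the highest point for B2m in all 4 classes, and H2-Q6 and H2-Q7 are highest in podocyte-like cells.

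B2m, the light chain shared by all class I molecules, was lowest in podocyte-like cells in every library. It was at 533 CPM in WT 5 weeks, 99.0 CPM in AS 5 weeks, 86.4 CPM in WT 8 weeks and 187 CPM in AS 8 weeks. The WT 5-week library stood far above the other 3, and AS 8 weeks lay between. Endothelial-like cells had 1927, 848, 940 and 1083 CPM in the same order of libraries. Mesangial-like cells had 1386, 397, 472 and 479 CPM, and immune-like cells 1506, 952, 933 and 1170 CPM. B2m in podocyte-like cells was thus 27.6%, 11.7%, 9.19% and 17.3% of the endothelial-like level of its library. The corresponding figure for Emcn was 0.193% to 0.314%, so B2m in podocyte-like cells exceeded what free endothelial RNA carried for that gene.

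H2-K1 and H2-D1 encode the classical heavy chains. In podocyte-like cells H2-K1 was at 626 CPM in WT 5 weeks, 404 CPM in AS 5 weeks, 288 CPM in WT 8 weeks and 678 CPM in AS 8 weeks. WT 5 weeks and AS 8 weeks were the high libraries and WT 8 weeks the lowest. H2-D1 was at 996, 527, 492 and 842 CPM in the same order, again with WT 5 weeks and AS 8 weeks high. In endothelial-like cells H2-K1 was at 914, 428, 503 and 505 CPM and H2-D1 at 1115, 703, 729 and 934 CPM. In mesangial-like cells H2-K1 was at 579, 166, 290 and 263 CPM and H2-D1 at 868, 308, 437 and 465 CPM. In both of these classes WT 5 weeks was highest and AS 5 weeks lowest for each of these heavy chains.

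H2-Q6 and H2-Q7 encode nonclassical heavy chains of the Qa-2 group. In podocyte-like cells H2-Q7 was at 3435, 3370, 3132 and 2643 CPM in WT 5 weeks, AS 5 weeks, WT 8 weeks and AS 8 weeks, and H2-Q6 at 1860, 1194, 1810 and 1125 CPM. H2-Q7 varied little between libraries, and both WT libraries were above both AS libraries for H2-Q6. Of the last 400 bases of its coding transcripts, at most 60.4% of the 60-base stretches of H2-Q6 also occurred in another H2 gene, so reads could be assigned to a neighbour and H2-Q6 values are uncertain. All such stretches of H2-Q7 were unique to it. Together they made up 76.6%, 83.1%, 86.4% and 71.3% of the UMIs of the 4 heavy chains in podocyte-like cells, against 10.7%, 5.89%, 29.7% and 7.88% in endothelial-like cells, where the WT 8-week value includes cluster 10. The podocyte-like cells therefore carried much heavy chain RNA beside little B2m: 7.70, 1.80, 1.51 and 3.54 B2m UMIs per 100 heavy chain UMIs, against 84.7, 70.6, 53.6 and 69.3 in endothelial-like cells.

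**Figure D2:**
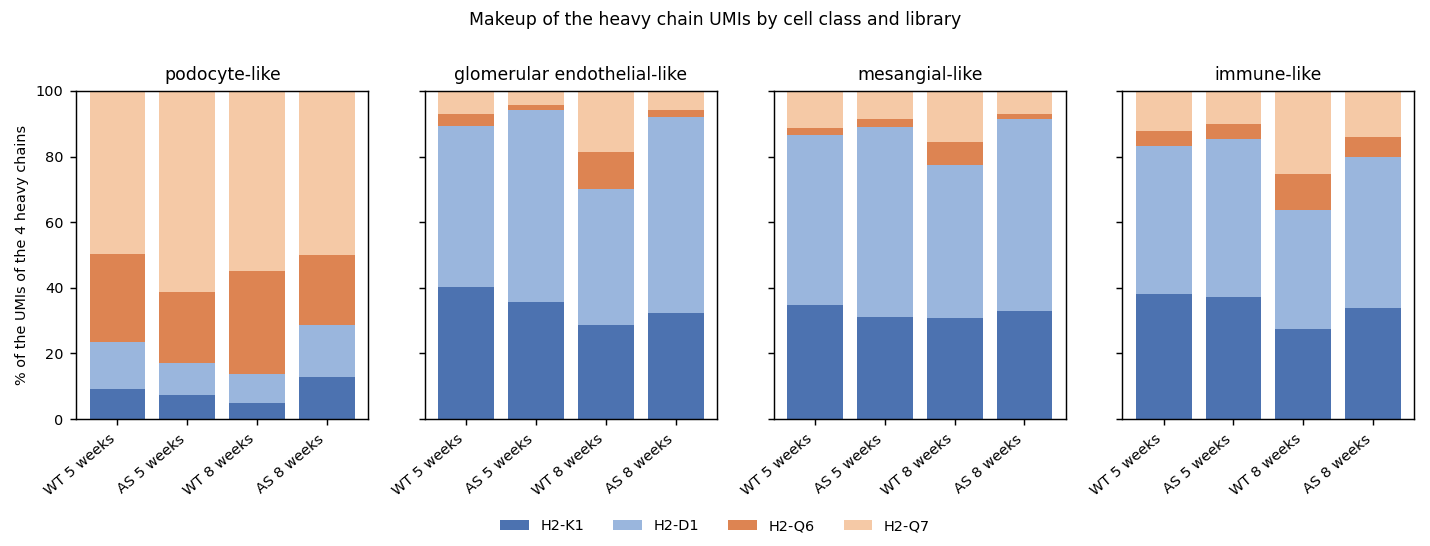
Makeup of the UMIs of H2-K1, H2-D1, H2-Q6 and H2-Q7 (%) by library in each class. H2-Q6 and H2-Q7 take 71.3% to 86.4% in podocyte-like cells and 5.89% to 29.7% in endothelial-like cells.

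Outside podocyte-like cells H2-Q6 and H2-Q7 were compared with podocyte RNA. In WT 8 weeks endothelial-like cells had 10.8% of the podocyte-like H2-Q6 level and 10.4% of the H2-Q7 level, beside 9.09% for the slit diaphragm gene Nphs1. Cluster 10 alone carried 875 of the 1233 H2-Q6 UMIs and 1468 of the 2052 H2-Q7 UMIs of that class and library. Its WT 8-week cells were at 353 CPM for H2-Q6 and 592 CPM for H2-Q7, which is 19.5% and 18.9% of the podocyte-like level, beside 19.2% for Nphs1. Clusters 2, 4, 5 and 6 held at least 30 endothelial-like cells of every library. Together they were at 94.7 CPM for H2-Q6 and 153 CPM for H2-Q7 in WT 8 weeks, 5.23% and 4.90% of the podocyte-like level beside 2.498% for Nphs1. The high WT 8-week level thus belonged to cluster 10, where both genes lay close to Nphs1, and in the shared clusters both lay above it. Over all endothelial-like cells of WT 5 weeks the shares were 4.39% and 4.73%, above 0.562% for Nphs1. In AS 5 weeks they were 1.70% and 1.497% beside 0.666%, and in AS 8 weeks 2.94% and 3.41% beside 1.21%. In mesangial-like cells of WT 8 weeks they were 3.71% and 4.62% beside 4.38% for Nphs1, and in immune-like cells 19.1% and 25.7% beside 16.2%.

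**Figure D3:**
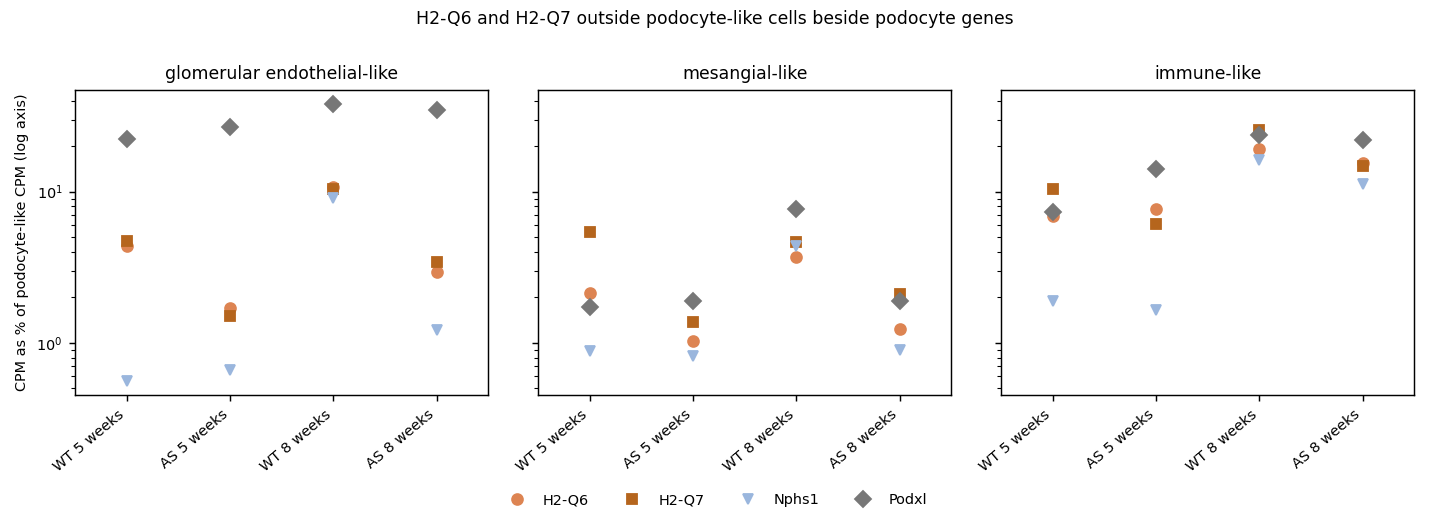
Level of H2-Q6, H2-Q7 and the podocyte genes Nphs1 and Podxl outside podocyte-like cells, as % of the podocyte-like CPM of the same library (log axis). In WT 8 weeks the H2-Q genes and Nphs1 lie together in endothelial-like cells, at 9.09% to 10.8% with cluster 10 included, whereas Podxl, which endothelial cells also express, lies higher.

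Nlrc5, the transactivator of class I promoters, was at 24.4, 2.24, 3.81 and 2.67 CPM in podocyte-like cells of WT 5 weeks, AS 5 weeks, WT 8 weeks and AS 8 weeks. It was at 51.9, 15.2, 18.6 and 16.3 CPM in endothelial-like and 44.1, 5.81, 6.15 and 6.32 CPM in mesangial-like cells. In each of these classes WT 5 weeks stood apart and the other 3 libraries lay close together. Tap1, which with Tap2 forms the peptide transporter, was at 52.2, 12.7, 11.006 and 14.2 CPM in podocyte-like cells, and Tap2 at 47.2, 37.0, 33.8 and 42.2 CPM. Psmb8 and Psmb9, catalytic subunits of the immunoproteasome, were at 34.5, 6.30, 3.36 and 13.3 CPM and at 53.5, 12.6, 10.0 and 23.2 CPM. Tap1, Psmb8 and Psmb9 followed the order of B2m between WT 5 weeks and the rest, while Tap2 varied less. In endothelial-like cells Psmb8 was at 80.0, 64.5, 58.0 and 66.3 CPM and Tap2 at 101, 77.4, 75.6 and 75.1 CPM. The libraries lay closer together in proportion for Psmb8 than in podocyte-like cells, and Tap2 varied little in both classes.

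At 5 weeks, the question was what differed before proteinuria. In podocyte-like cells 8 of 10 members were lower in AS and none higher, where 1.44% of 6798 genes measured in this comparison were lower by that much and 2.24% higher. Of the lower members, Nlrc5, Tap1, Psmb8 and Psmb9 reached 20 CPM only in WT 5 weeks. B2m, H2-K1, H2-D1 and H2-Q6 passed the floor in both libraries. The median over the 10 members was -1.30. The log2 ratio was -2.37 (-2.42 to -2.32) for B2m, -2.02 for Nlrc5, -1.81 for Psmb8, -1.73 for Psmb9 and -1.69 for Tap1. It was -0.91 for H2-D1, -0.64 for H2-Q6 and -0.62 for H2-K1, and H2-Q7 at -0.03 and Tap2 at -0.31 stayed inside 1.5-fold. In endothelial-like cells 7 of 10 were lower and none higher (0.971% lower and 0.738% higher over all measured genes), with B2m at -1.18, H2-K1 at -1.09, Nlrc5 at -1.49 and Tap1 at -0.97. In mesangial-like cells 9 of 10 were lower and none higher (1.42% and 0.58%), with B2m at -1.79, H2-K1 at -1.78, H2-D1 at -1.48 and Nlrc5 at -2.18. Nlrc5 in endothelial-like cells likewise reached 20 CPM only in WT 5 weeks, as did H2-Q6, Nlrc5, Tap1 and Psmb9 in mesangial-like cells. In immune-like cells 3 of 10 were lower and none higher (4.33% and 8.43%), B2m at -0.66, H2-Q7 at -0.78 and Nlrc5 at -0.90.

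Most of these differences were not seen against the other WT library. Against the WT library of 8 weeks, AS 5 weeks had 1 member lower and none higher in podocyte-like cells, with 4 of 10 under the floor and a background of 1.73% lower and 1.85% higher. B2m was then at 0.19, H2-K1 at 0.48 and H2-D1 at 0.10, with the sign turned. The lower member was H2-Q6, at -0.60. In endothelial-like cells 2 of 10 were lower and none higher (5.22% and 1.61%), in mesangial-like cells 3 of 10 were lower and none higher (3.36% and 1.34%), and H2-Q6 and H2-Q7 were among them. The third in mesangial-like cells was H2-K1, at -0.79 (-0.91 to -0.67), so AS 5 weeks was low against both WT libraries for this gene. Between the WT libraries themselves, 8 over 5 weeks, 7 of 10 members were lower and none higher in podocyte-like cells (1.02% and 1.33%), with B2m at -2.56 and Psmb8 at -2.24. Nlrc5, Tap1, Psmb8 and Psmb9 again passed the floor there only through WT 5 weeks. In endothelial-like cells 6 were lower and 2 higher (2.08% and 5.36%), and in mesangial-like cells 7 were lower and 1 higher (2.33% and 4.21%). The higher ones were H2-Q6 in both classes and H2-Q7 in endothelial-like cells. Among the lower ones, Nlrc5 and Tap1 in both classes and Psmb9 in mesangial-like cells passed the floor only through WT 5 weeks. Nphs1 in mesangial-like cells was at 24.1 CPM in WT 5 weeks and 124 CPM in WT 8 weeks. The part of podocyte RNA in the higher H2-Q6 level there was not tested. In the endothelial-like clusters shared by all libraries no member was higher, with H2-Q6 at 0.11 and H2-Q7 at -0.22, and 5 were lower. B2m between the WT libraries was at -1.03 in endothelial-like and -1.54 in mesangial-like cells, beside -1.18 and -1.79 for AS over WT at 5 weeks.

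**Figure D4:**
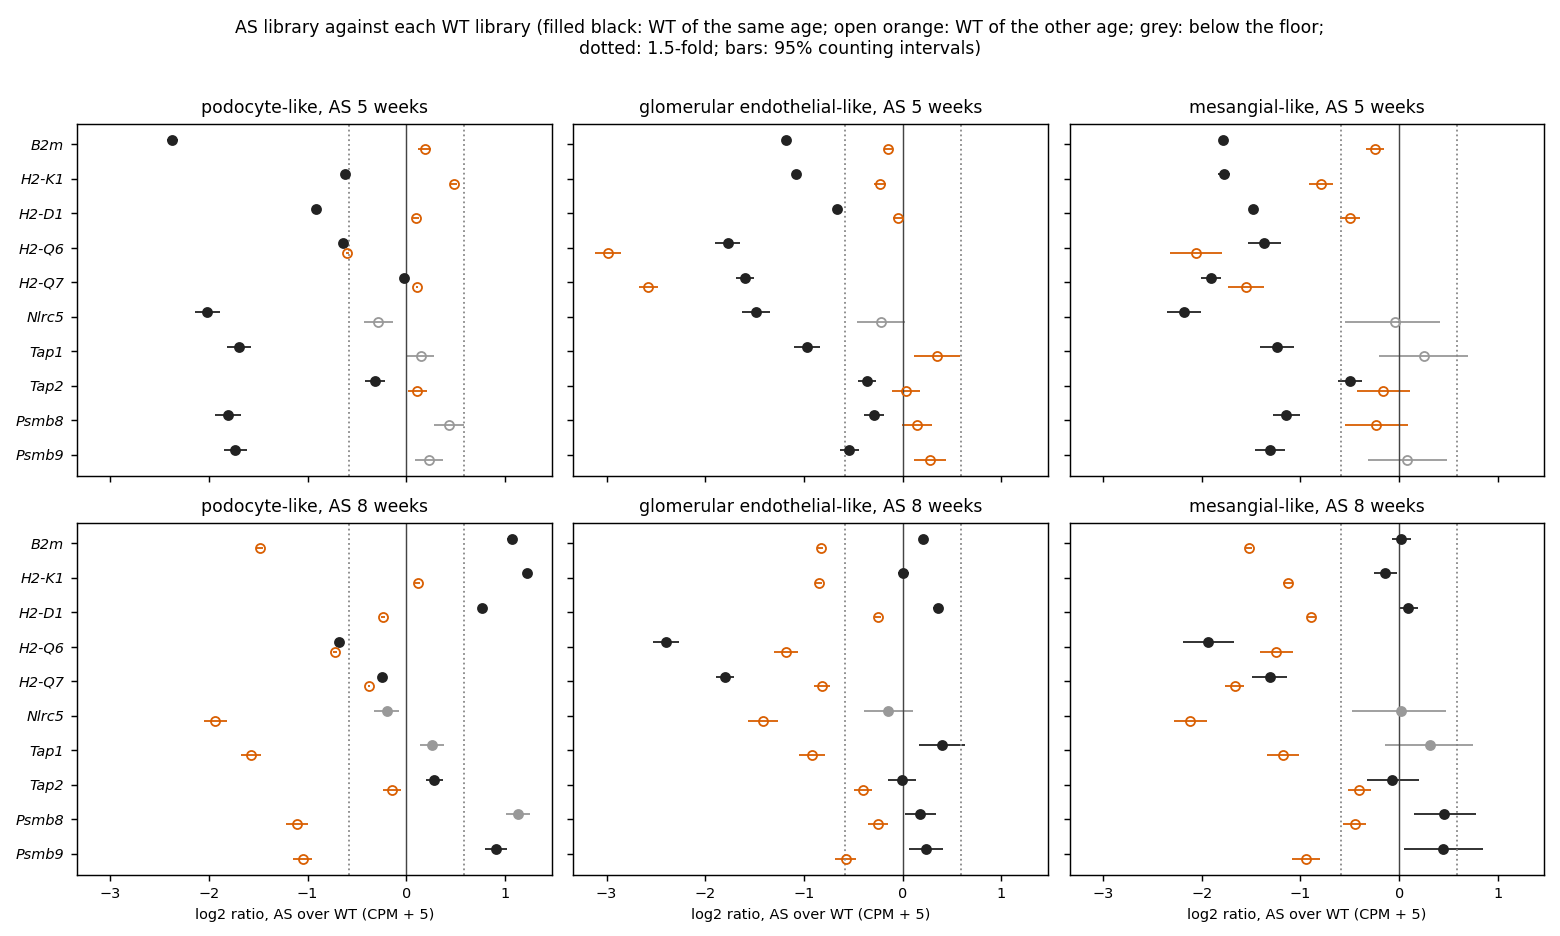
Log2 ratio of AS over WT for each member, for the WT library of the same age (filled black) and of the other age (open orange), with 95% counting intervals, points under the floor in grey and dotted lines at 1.5-fold. In podocyte-like cells B2m moves from -2.37 to 0.19 at 5 weeks and from 1.07 to -1.48 at 8 weeks when the WT library is exchanged.

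At 8 weeks, with mild proteinuria, podocyte-like cells had 4 of 10 members higher in AS, where 4.14% of 6963 measured genes were higher, and 1 lower, where 3.39% were. H2-K1 was at 1.22 (1.19 to 1.25), B2m at 1.07 (1.02 to 1.13), Psmb9 at 0.91 and H2-D1 at 0.77, and H2-Q6 was lower at -0.68. Psmb9 reached 20 CPM only in AS 8 weeks, so it leaned towards being counted as higher. None of these 4 higher members was counted as higher within a cluster that both 8-week libraries share, though the ratios stayed positive. In clusters 1, 14 and 15 H2-K1 was at 0.38, 0.43 and 0.44, B2m at 0.31, 0.41 and 0.44, and H2-D1 at 0.13, 0.21 and 0.090. Cluster 14 held 80 of 2409 AS 8-week cells and cluster 15 held 52 of 2695 WT 8-week cells. Cluster 25, with 908 AS 8-week cells, held 4 WT 8-week cells and was not compared. Psmb9 was at 0.41 and 0.83 in clusters 1 and 14, under the floor, and at 0.45 in cluster 15. Psmb8 had a ratio of 1.13 but did not reach 20 CPM in either library, as did not Nlrc5 and Tap1. In endothelial-like cells 2 of 10 were lower and none higher (4.03% and 1.81%), and in mesangial-like cells 2 of 10 were lower and none higher (3.14% and 0.922%), H2-Q6 and H2-Q7 in each case. In the shared endothelial-like clusters H2-Q6 was at -1.42 and H2-Q7 at -0.76, and Nphs1 was also higher there in WT 8 weeks, at 70.7 CPM against 24.7 CPM. In mesangial-like cells Nphs1 was at 124 CPM in WT 8 weeks against 19.2 CPM in AS 8 weeks, and H2-Q6 passed the floor only through WT 8 weeks. The part of podocyte RNA in these differences was not tested. B2m was at 0.20 in endothelial-like and 0.02 in mesangial-like cells, and H2-K1 at 0.01 and -0.14. The endothelial-like values are over different clusters, and within the shared ones the sign varied: B2m was at -0.13 in cluster 2, -0.11 in cluster 4, 0.23 in cluster 5 and 0.13 in cluster 6. In immune-like cells, with 53 cells in WT, 2 were lower (5.40%) and 1 higher (12.9%), the latter being Psmb9 at 0.64. Against WT 5 weeks, AS 8 weeks had 6 members lower and none higher in podocyte-like cells (4.44% and 7.54%), with B2m at -1.48 and H2-K1 at 0.11. In endothelial-like cells 6 were lower and none higher (1.74% and 3.95%), and in mesangial-like cells 8 were lower and none higher (2.03% and 4.24%). Nlrc5, Tap1 and Psmb8 in podocyte-like cells passed the floor there only through WT 5 weeks. So did Nlrc5 in endothelial-like cells and H2-Q6, Nlrc5 and Tap1 in mesangial-like cells. From 5 to 8 weeks within AS, 4 members were higher and none lower in podocyte-like cells (2.28% and 0.77%), namely B2m at 0.89, H2-K1 at 0.74, Psmb9 at 0.68 and H2-D1 at 0.67, and none was past 1.5-fold within clusters 1, 15 or 25. Psmb9 again reached 20 CPM only in AS 8 weeks. In endothelial-like cells 2 were higher and none lower (1.65% and 0.764%), H2-Q6 and H2-Q7, and in mesangial-like cells 3 were higher and none lower (1.62% and 1.03%), H2-K1, H2-D1 and Psmb8. Of the 10 members, H2-Q6 alone was past 1.5-fold in the same direction in podocyte-like cells against both WT libraries at both ages. Its reads are uncertain as described above, and at 8 weeks it was at -0.55 with a mean over cells and at -0.56 within cluster 14. Within cluster 1 it was lower in the same comparisons. Within cluster 15 it was lower in AS 5 weeks and in AS 8 weeks against WT 8 weeks, which had 52 cells there. WT 5 weeks had 11 cells in cluster 15 and was not compared. Within cluster 0 it was inside 1.5-fold against both WT libraries, at 1208 CPM in AS 5 weeks, 1780 CPM in WT 5 weeks and 1330 CPM in WT 8 weeks.

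The clusters behind the podocyte-like class differed between libraries, and levels differed both by library within a cluster and by cluster within a library. Cluster 0 held 1305 of the WT 5-week cells, cluster 14 held 2335 of the WT 8-week cells and cluster 1 held 926 of the AS 5-week cells. The AS 8-week cells lay mainly in cluster 15, with 1060, and cluster 25, with 908. Cluster 1 had cells of every library, and there B2m was at 517 CPM in WT 5 weeks, 92.1 CPM in AS 5 weeks, 103 CPM in WT 8 weeks and 129 CPM in AS 8 weeks. The WT 5-week cells were high within a shared cluster too, and the 8-week libraries lay closer together than over all podocyte-like cells. H2-K1 in cluster 1 was at 682, 386, 334 and 436 CPM in the same order. Within AS 8 weeks H2-K1 was at 436 CPM in cluster 1, 554 CPM in cluster 15 and 812 CPM in cluster 25, and B2m at 129, 157 and 220 CPM. The AS 8-week level was thus highest in cluster 25, which held 44 AS 5-week cells beside its 908 AS 8-week cells. Cluster 23, led by interferon genes such as Gbp2 and Igtp, held 75 WT 5-week cells and 3 AS 8-week cells. In its WT 5-week cells B2m was at 1369 CPM, Tap1 at 346 CPM and Psmb8 at 331 CPM. Without cluster 23 the WT 5-week podocyte-like level was 483 CPM for B2m, 34.6 CPM for Tap1 and 16.9 CPM for Psmb8, and 5 of 10 members were lower in AS at 5 weeks. H2-K1 was then at -0.57, inside 1.5-fold, and Nlrc5 and Psmb8 fell under the floor.

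The B2m difference was spread over many podocyte-like cells. With each cell thinned to 5000 UMIs, 76.2% of WT 5-week cells (95% Clopper-Pearson interval 74.0% to 78.4%) had a B2m UMI, against 36.1% in AS 5 weeks, 32.5% in WT 8 weeks and 54.5% in AS 8 weeks. Without thinning the shares were 92.6%, 74.2%, 60% and 84.1%, at median depths of 16263, 17822, 14414 and 20237 UMIs. Emcn, which podocytes should lack, had a UMI in 8.34%, 7.29%, 4.46% and 7.55% of the thinned cells. The median thinned podocyte-like cell had 2 B2m UMIs in WT 5 weeks, 0 in AS 5 weeks, 0 in WT 8 weeks and 1 in AS 8 weeks. In endothelial-like cells the share was between 96.4% and 99.8%, and the median 9, 4, 4 and 5 UMIs. H2-Q7 had a UMI in at least 99.5% of podocyte-like cells in every library. Cells under 5000 UMIs, 66 to 250 podocyte-like cells per library, were left out.

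**Figure D5:**
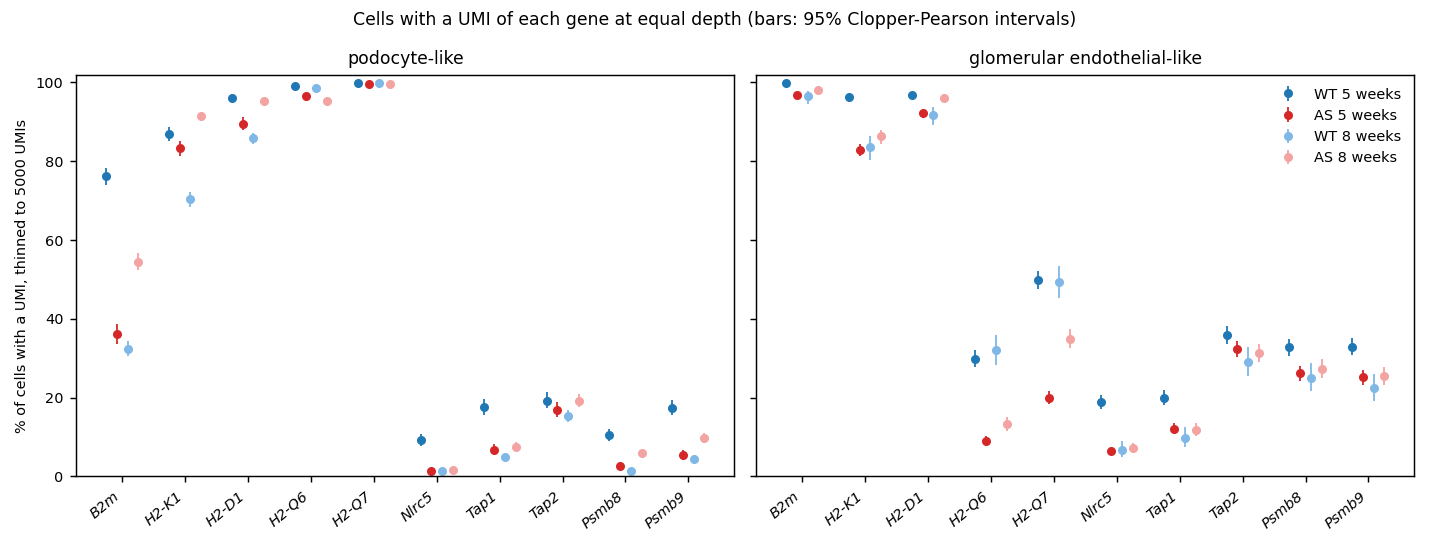
Share of cells with a UMI of each member (%) after thinning to 5000 UMIs, with 95% Clopper-Pearson intervals, in podocyte-like and endothelial-like cells. In podocyte-like cells B2m spans 32.5% to 76.2% between libraries, whereas H2-Q7 is near its maximum in all 4.

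Other genes of the pathway were read from lists. Of 6 peptide loading genes 5 were measured in podocyte-like cells and none was past 1.5-fold at either age against WT of the same age. Tapbp, the tapasin that bridges TAP and the heavy chain, was at -0.42 at 5 weeks and 0.44 at 8 weeks. Of 14 constitutive proteasome genes all were measured and none was past 1.5-fold in podocyte-like, endothelial-like or mesangial-like cells at either age, with medians of 0.13 to 0.28. Of 11 other class I heavy chains 3 were measured in podocyte-like cells at 5 weeks and 1 was lower, H2-Q4 at -1.17, and at 8 weeks 1 of 4 was higher, H2-M3 at 0.98. Among 3 further immunoproteasome and activator genes none was past 1.5-fold at 5 weeks in podocyte-like cells, and Psmb10 was higher at 8 weeks, at 1.01. The promoter factors had 3 of 7 genes measured in podocyte-like cells and none past 1.5-fold at either age, with Creb1 at -0.25 and -0.26.

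Interferon gamma-type target genes were lower in AS at 5 weeks beside the members. Of 13 interferon gamma-type targets 8 were measured in podocyte-like cells and all 8 were lower, beside 1.44% of all measured genes, with a median of -2.42 against 0.00 over all measured genes. In endothelial-like cells 12 of 12 (0.971%), in mesangial-like cells 12 of 12 (1.42%) and in immune-like cells 10 of 12 (4.33%) were lower. Of 11 type I interferon-type targets 2 of 3 measured were lower in podocyte-like, 2 of 10 in endothelial-like, 4 of 9 in mesangial-like and 1 of 11 in immune-like cells, and none was higher. Of the gamma-type targets, Gbp2, a guanylate-binding protein, was at 194, 15.7, 8.34 and 29.3 CPM in podocyte-like cells of WT 5 weeks, AS 5 weeks, WT 8 weeks and AS 8 weeks, so WT 5 weeks was again the high library. At 5 weeks Gbp2 thus passed the floor only through WT. Genes admitted in this way lean towards being counted as lower in AS, so the counts of lower targets are partly set by the floor. At 8 weeks 2 of 3 measured gamma-type targets were higher in podocyte-like cells of AS, beside 4.14% of all measured genes, the chemokine Cxcl10 at 3.58 and Gbp2 at 1.36. Gbp2 passed the floor there only through AS 8 weeks and leaned towards being counted as higher, so this count is also partly set by the floor. Of 5 NF-kB genes 3 were higher in podocyte-like cells of AS 8 weeks (4.14% of all measured genes), with Nfkbia at 1.38 and Relb at 1.27, and 2 of 4 at 5 weeks (2.24%), with Nfkbia at 1.07 and Relb at 0.83. What part the library or any such signal has in the class I levels was not tested.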

How the data were processed

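Glomerular cells were profiled with 10x Chromium 3' chemistry, labelled kit version 2, in 4 libraries. The values the authors deposited are whole-number UMI counts per gene and cell barcode, which the file headers credit to Cell Ranger 9.0.0. Also named, in the submitters' processing notes, are bcl2fastq 2.20.0, STAR 2.7.2a and the build GRCm38 (mm10). Libraries held 6604 to 7963 barcodes and 74356581 to 126118422 UMIs.

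Barcodes with under 500 genes, under 1000 UMIs or over 20% mitochondrial UMIs were left out, as were doublets called by Scrublet (2.55% to 6.31%), leaving 5566, 6463, 6126 and 6833 cells in WT 5 weeks, AS 5 weeks, WT 8 weeks and AS 8 weeks. Cells were clustered with scanpy 1.11.5 (2000 variable genes, 30 principal components, Leiden resolution 1) without 75 class I, class II and interferon genes. The 29 clusters were named from markers where 1 class led by a log2 score of 1; depth outliers and ambiguous clusters stayed unnamed. UMIs were summed per class and library. Levels have exact Poisson intervals and ratios conditional binomial intervals, which cover counting error only. Ratio estimates were checked on simulated data. All members, and the 2 largest ratios of each list, were named; Ifng was chosen after its values were seen. The members and lists were chosen with earlier results of these data known. The alternatives were the other WT library, scaling, pseudocount, clustering, depth and cell filters. Some list genes are not reported here.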

Additional observations from a re-analysis of the deposited data

Results flagged for a closer look

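Podocyte-like cells had opposite directions of AS over WT at 5 and at 8 weeks for 4 members when each age was set against its own WT library. B2m had a log2 ratio of -2.37 at 5 weeks and 1.07 at 8 weeks. H2-K1 had -0.62 and 1.22, H2-D1 had -0.91 and 0.77, and Psmb9 had -1.73 and 0.91. Psmb9 reached 20 CPM only in WT at 5 weeks and only in AS at 8 weeks. That it was counted in opposite directions was thus largely set by the floor. With 1 library per group the difference between ages was not tested. The WT levels moved more between ages than the AS levels for each of these genes: B2m was at -2.56 from WT 5 to WT 8 weeks and at 0.89 from AS 5 to AS 8 weeks, and Psmb9 at -1.96 and 0.68. Within the podocyte-like clusters shared by both 8-week libraries none of the 4 was counted as higher at 8 weeks. Cluster 25, with 908 AS 8-week and 4 WT 8-week cells, was not among these clusters.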

How the results depend on the processing

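No paired analysis was possible because each group had 1 library and no replicate numbers. Of 60 member ratios in podocyte-like, endothelial-like and mesangial-like cells 33 were past 1.5-fold. Of these, all 33 kept direction and size class under the pseudocount of 1 CPM, median-of-ratios scaling, resolution 2, cells classed from their own markers, the deeper cells and the mitochondrial maximum of 10%, and 31 with a mean over cells or with doublets kept. Resolution 0.5 gave no podocyte-like value, since a cluster had leading markers of another class, and kept 20 of 20. With WT of the other age 11 of 33 were kept. The count of lower members then went from 8 to 1 in podocyte-like, from 7 to 2 in endothelial-like and from 9 to 3 in mesangial-like cells at 5 weeks, and from 1 to 6, from 2 to 6 and from 2 to 8 at 8 weeks, where higher podocyte-like members went from 4 to 0. Among the 33 ratios past 1.5-fold, signs turned in podocyte-like cells at 5 weeks for B2m (0.19), H2-K1 (0.48), H2-D1 (0.10), Tap1 (0.14), Psmb8 (0.44) and Psmb9 (0.23), and at 8 weeks for B2m (-1.48), H2-D1 (-0.24) and Psmb9 (-1.05). They turned for Tap1 in endothelial-like cells (0.35) and for Tap1 (0.25) and Psmb9 (0.081) in mesangial-like cells at 5 weeks. The WT library is the construction of that alternative; what makes the WT libraries differ was not tested. Without the interferon-led clusters, chosen after seeing the data, 30 of 33 were kept and 5 podocyte-like members were lower at 5 weeks. In clusters with at least 30 cells of every library, also chosen after seeing the data, 27 of 33 were kept and higher podocyte-like members at 8 weeks went from 4 to 0. Of the podocyte-like clusters only cluster 1 met this, with 343 of 2409 AS 8-week cells. A mean over cells gave 0 lower podocyte-like members and 2 higher mesangial-like members at 8 weeks. With doublets kept H2-Q6 in mesangial-like cells at 5 weeks was at 0.0070, and 1 mesangial-like member was higher at 8 weeks. With a very deep cluster of 66 WT 8-week cells counted as mesangial-like, chosen after seeing the data, 4 were lower there; the cause of these shifts was not tested.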

Other observations

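Genes outside the lists were ranked by how closely their level followed the sum of B2m, H2-K1 and H2-D1 over 12 points, 3 classes in 4 libraries, each class centred. Of 5730 candidates the closest were Herc6 (r = 0.91), Fnbp1 (0.89), Vwa5a (0.88), Cd274 (0.86), P4hb (0.86), Tgtp2 (0.85), Samhd1 (0.85) and Stat3 (0.84). Cd274, the checkpoint ligand PD-L1, was at 32.7, 2.21, 2.21 and 3.77 CPM in podocyte-like cells of WT 5 weeks, AS 5 weeks, WT 8 weeks and AS 8 weeks. The points share libraries, so the correlation describes these 4 libraries. With a pseudocount of 1 CPM 7 of 8 genes stayed among the closest. H2-Q7 (0.43) and H2-Q6 (0.26) followed the sum less closely than Tapbp (0.97) and Tap2 (0.96), and the constitutive subunit Psmb6 ran opposite (-0.71).

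Of 7 class II genes, which serve presentation to CD4 T cells, 2 were measured in endothelial-like cells, and both were lower in AS at 5 weeks, beside 0.971% of all measured genes. Cd74, the invariant chain, was at 46.5, 3.54, 3.49 and 4.75 CPM there in the same order, and H2-Ab1 at 28.97, 5.05, 4.76 and 5.82 CPM. Both reached 20 CPM only in WT 5 weeks. That they were counted as lower was thus largely set by the floor, and the share over all genes does not weigh it. In immune-like cells none of 7 was past 1.5-fold at 5 weeks: Cd74 was highest in WT 8 weeks, at 7154 CPM, and H2-Aa was at 2020, 1571, 1759 and 2132 CPM. H2-DMa (r = -0.15) and H2-DMb1 (0.25) did not follow the class I sum closely. H2-Ab1 (0.83), Cd74 (0.82), H2-Eb1 (0.77), H2-Aa (0.73) and Ciita (0.67) followed it more closely. None of the 7 reached 20 CPM in every class used for this correlation, so these values rest on low counts. Ifng, the interferon gamma gene, had 197 UMIs in 10 of 50 T and NK-like cells of WT 5 weeks, 115 of them in 1 cell. It had 4 UMIs in 3 of 62 such cells of AS 5 weeks, 3 UMIs in 1 of 11 of WT 8 weeks and 11 UMIs in 5 of 39 of AS 8 weeks. This gene was chosen after its values were seen, and its part in the class I levels was not tested.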
